A study of Mus musculus with 6 samples.

Results

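Lipoprotein lipase, encoded by Lpl, is the enzyme that hydrolyses triglycerides of circulating lipoproteins, and its transcript was 3.65 times as high in cells that bind much FcsFNDC4 as in cells that bind little. The genes described are Lpl and 9 others that mature, anchor or inhibit the enzyme, take up the fatty acids it frees, or make and break down stored triglyceride: Gpihbp1, Lmf1, Angptl4, Cd36, Lipe, Pnpla2, Mgll, Dgat1 and Dgat2. They were taken by symbol, and all 10 had exactly 1 transcript cluster (a group of array probes read together) that carried no other symbol, among 19938 genes with such a cluster. Of the 10, only Lpl passed the test for a difference between the cell populations with a fold above 1.5, as 3.67% of all genes did.

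FNDC4 is a membrane protein that releases a soluble, hormone-like form. FcsFNDC4 is the extracellular part of FNDC4 fused to an antibody Fc part. High binding cells (HBC) and low binding cells (LBC) were sorted by fluorescence for their binding of it, in 20 rounds of sorting and regrowth, from one immortalized line of stromal vascular (preadipocyte) cells isolated from inguinal fat of male 129SVE animals; an age is not given. RNA was measured on Affymetrix mouse gene arrays at passage 20, with 3 technical replicates of HBC and 3 of LBC and no differentiation step in the growth protocol. Each group is 1 sorted population, so every error and p-value below describes the spread between technical replicates and not between independent sorts. For LBC replicates 2 and 3, 1 label (the source name) says HBC while title, description and phenotype say LBC. Both arrays correlated with LBC replicate 1 at r of at least 0.996 and with HBC arrays at no more than 0.986 across genes, which are not independent replicates. They were kept as LBC by title. Mean intensity over all clusters was 471, 490 and 547 for LBC replicates 1, 2 and 3 and 483 to 514 for HBC, with LBC replicate 3 the highest; its median intensity was 131, within the range of 122 to 134.6 of the other arrays.

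In fat tissue, lipoprotein lipase is made by adipocytes, folded in the endoplasmic reticulum with the help of LMF1, and carried to the capillary wall by GPIHBP1, while ANGPTL4 inactivates it. The fatty acids it releases enter cells partly through CD36 and are joined to glycerol, with DGAT1 and DGAT2 adding the last acyl chain. Stored triglyceride is broken down in turn by adipose triglyceride lipase (Pnpla2), hormone-sensitive lipase (Lipe) and monoacylglycerol lipase (Mgll). Lpl is known to rise early as preadipocytes turn into adipocytes, while most of the genes of storage and breakdown rise later.

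The intensity of Lpl was 1976, 2012 and 1895 on the HBC arrays and 502, 529 and 579 on the LBC arrays (transcript cluster 10572130). The groups were far apart, and the spread within each was small, the HBC mean being 1961 ± 59.7 (SD, n = 3 arrays) and the LBC mean 537 ± 38.9 (SD, n = 3). On the scale of log2(intensity + 16), on which all tests were made, HBC exceeded LBC by 1.84 ± 0.086 (standard error; limma, adjusted p = 7.5e-17), and the 95% interval for the fold was 3.17 to 4.05. A call needed a limma p below 0.05 after adjustment together with more than a 1.5-fold difference, a rule that called 2.54% of all genes higher in HBC and 3.67% in either direction. By its log2 fold change, Lpl ranked 99 of 19938 genes. The adjusted p of Lpl ran from 1.8e-73 to 0.0043 over the settings tried, and its log2 fold change from 1.78 to 1.93. Because RNA was pooled from a culture, a higher share of cells with the transcript and more transcript per cell cannot be told apart.

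**Figure D1:**
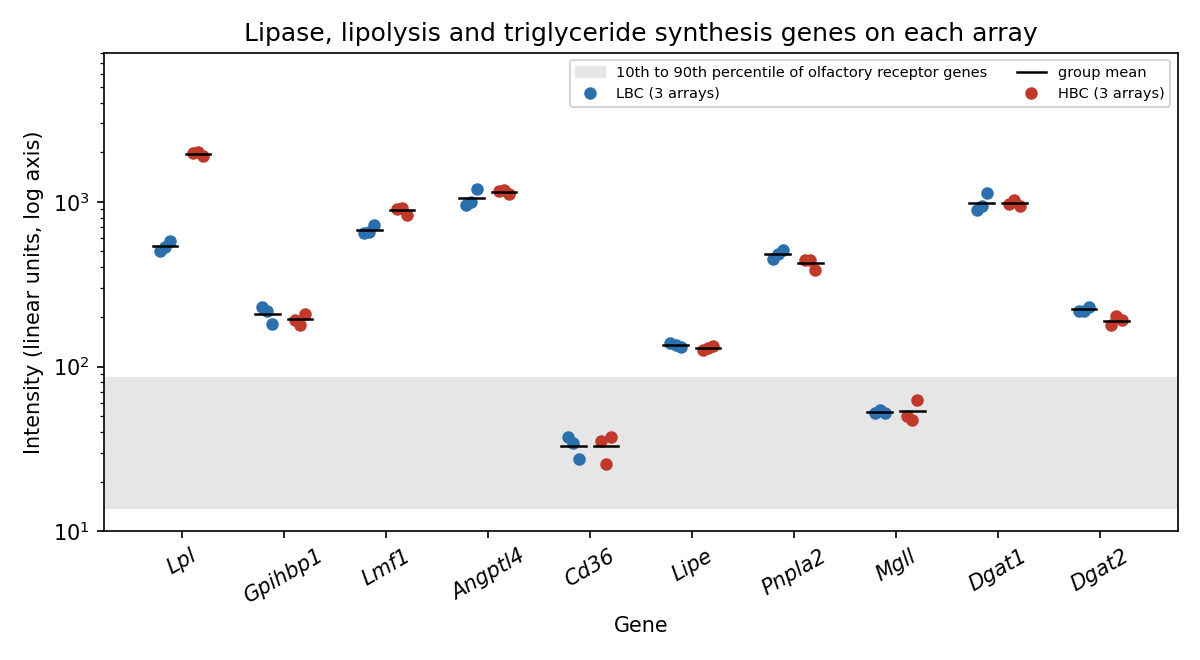
Intensity (linear units on a log axis) of the 10 genes on each array, with 3 HBC arrays in red, 3 LBC arrays in blue and black lines at group means. The grey band is the range of olfactory receptor genes, 13.8 to 85.0, a reference for dim signal. Lpl is the gene with a wide gap between groups, Lmf1 has a narrow one with HBC above, Pnpla2 and Dgat2 have narrow ones with HBC below, and Cd36 and Mgll lie in the band; levels of different genes cannot be compared with each other on arrays.

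Among the partners of the enzyme, Lmf1 was the nearest to a call. Its product, lipase maturation factor 1, is needed for the folding of lipoprotein lipase. Lmf1 had an intensity of 908, 921 and 834 in HBC and 642, 659 and 722 in LBC (cluster 10442816). Every HBC array lay above every LBC array, but the gap was small beside that of Lpl. The ratio of means was 1.32, and the log2 difference was 0.39 ± 0.086 (standard error; limma, adjusted p = 0.0013). The 95% interval of the fold, 1.16 to 1.48, stayed below the 1.5 needed for a call. With the methods' t-test in place of limma's shared variance, the adjusted p of Lmf1 was 0.055.

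Angptl4, the inhibitor, had an intensity of 1166, 1174 and 1114 in HBC and 955, 996 and 1198 in LBC. The groups overlapped, because LBC replicate 3 was the highest of all arrays while the other LBC arrays were the lowest. The log2 fold change was 0.14 (95% interval of the fold 0.967 to 1.25, adjusted p = 0.32 from limma). Without LBC replicate 3 it was 0.24, with an adjusted p of 0.018 from limma, and under quantile and cyclic loess normalization the adjusted p was 0.032 and 0.0076, each far under the fold needed.

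Gpihbp1, the capillary anchor, read 190.4, 179.8 and 209 in HBC and 229, 216 and 182 in LBC. These ranges overlapped, and the log2 fold change was -0.10 (95% interval of the fold 0.817 to 1.06). Gpihbp1 is a gene of endothelial cells. None of 12 endothelial markers was called (Cldn5, the brightest, had a log2 fold change of 0.02), 9 of them lay within the range of dim signal in both groups, and their summed intensity was 948 to 1085 in HBC and 1020 to 1168 in LBC. These 12 do not cover every gene of endothelial cells. Clec14a, outside the list and named below for its profile, was higher in HBC, at a log2 difference of 1.93 (limma, adjusted p = 1.8e-17).

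Cd36, which encodes a fatty acid transporter of the cell surface and is a marker of mature adipocytes, was dim in both populations. It read 35.2, 25.7 and 37.3 in HBC and 37.6, 34.5 and 27.3 in LBC. All 6 values lay within the 10th to 90th percentile of olfactory receptor genes, from 13.8 to 85.0 over 1027 genes, a range taken as a reference for dim signal. A difference in Cd36 was not detectable at this signal, and its log2 fold change of -0.01 turned sign with scaling, to 0.045, 0.053 and 0.030 under quantile, cyclic loess and median scaling.

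Of the lipases that break down stored triglyceride, none passed the test. Pnpla2, whose product cuts the first fatty acid from triglyceride, read 442, 444 and 388 in HBC and 452, 483 and 507 in LBC. All HBC arrays lay below all LBC arrays, but only narrowly, with a log2 fold change of -0.17 (95% interval of the fold 0.783 to 1.00, adjusted p = 0.18 from limma). Lipe, which acts on diacylglycerol, read 126, 129 and 133 in HBC and 139, 136 and 131 in LBC, with overlapping groups and a log2 fold change of -0.06 (95% interval of the fold 0.853 to 1.08); under cyclic loess normalization it was 0.023. Mgll, which frees the last fatty acid, read 50.4, 47.5 and 63.0 in HBC and 52.4, 54.7 and 52.2 in LBC. Like Cd36, Mgll stayed within the range of dim signal on every array, so that a difference would have been hard to detect.

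The enzymes of the final step of triglyceride synthesis did not pass the test either. Dgat1 read 972, 1018 and 947 in HBC and 895, 945 and 1128 in LBC. LBC replicate 3 was again the highest array, the groups overlapped, and the log2 fold change of -0.01 (95% interval of the fold 0.874 to 1.13) turned to 0.050 and 0.036 under cyclic loess and median scaling. Dgat2, which is unrelated to Dgat1 in sequence and is the form linked to newly made fatty acids, read 179, 201 and 190.4 in HBC and 219, 218 and 230.5 in LBC. The HBC arrays all lay below the LBC arrays, with a ratio of means of 0.855 and a log2 fold change of -0.21 (95% interval of the fold 0.766 to 0.974, adjusted p = 0.084 from limma). Its adjusted p from limma was 0.025 under quantile normalization, 0.025 with a trended and robust variance prior and 0.0496 with the filter on 100 in at least 1 group, again far under the fold needed.

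**Figure D2:**
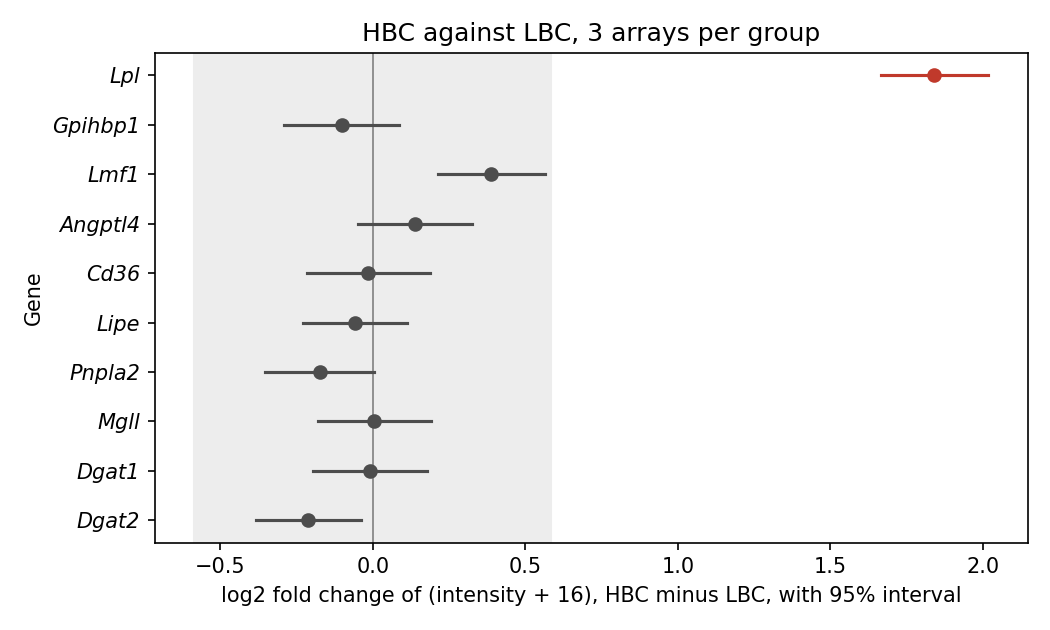
Log2 fold change of intensity + 16, HBC minus LBC, for each of the 10 genes, with bars for the 95% interval from limma over 3 arrays per group. The grey band spans folds up to 1.5 in either direction; Lpl, in red, lies beyond it at 1.84, and the whole interval of each of the other 9 lies inside it.

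For the 9 genes besides Lpl, the intervals ran from a fold of 0.766 (the lower bound of Dgat2) to 1.48 (the upper bound of Lmf1), so no interval reached a 1.5-fold difference in signal, with dim signal as a further limit for Cd36 and Mgll. None of the 9 was called under any setting that kept the fold above 1.5. Over all 10, the median log2 fold change was -0.01, beside -0.07 over all genes. Without the fold threshold 2 of 10, Lpl and Lmf1, passed in the higher direction, where 6.93% of all genes did, and 0 passed in the lower direction, where 11.4% did. Groups did not overlap with HBC above for 2 genes and with HBC below for 2, beside 10.1% and 25.1% of all genes.

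The genes with the array profile most like that of Lpl were found by the root mean square difference of log2(intensity + 16), centred on each gene's mean, over the 6 arrays. They were Deptor (0.049), Clec14a (0.056) and Mustn1 (0.064), with log2 fold changes of 1.84, 1.93 and 1.78. The likeness is largely that of a group difference of the same size, which 6 arrays in 2 groups cannot resolve further.

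Around these 10 genes, 83 others of the pathway in 4 lists had a cluster of their own. Of these, 9 (10.8%) were called, 6 higher and 3 lower in HBC. Over all genes 3.67% were called, 2.54% higher and 1.13% lower. The median log2 fold change of the 83 genes was -0.01. By the adjusted p alone (limma, below 0.05), 19 of the 83 passed higher and 6 lower, beside 6.93% and 11.4% of all genes. The calls were spread over all 4 lists. Because the lists were chosen with earlier results of these data known, the share called is not an independent result.

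**Figure D3:**
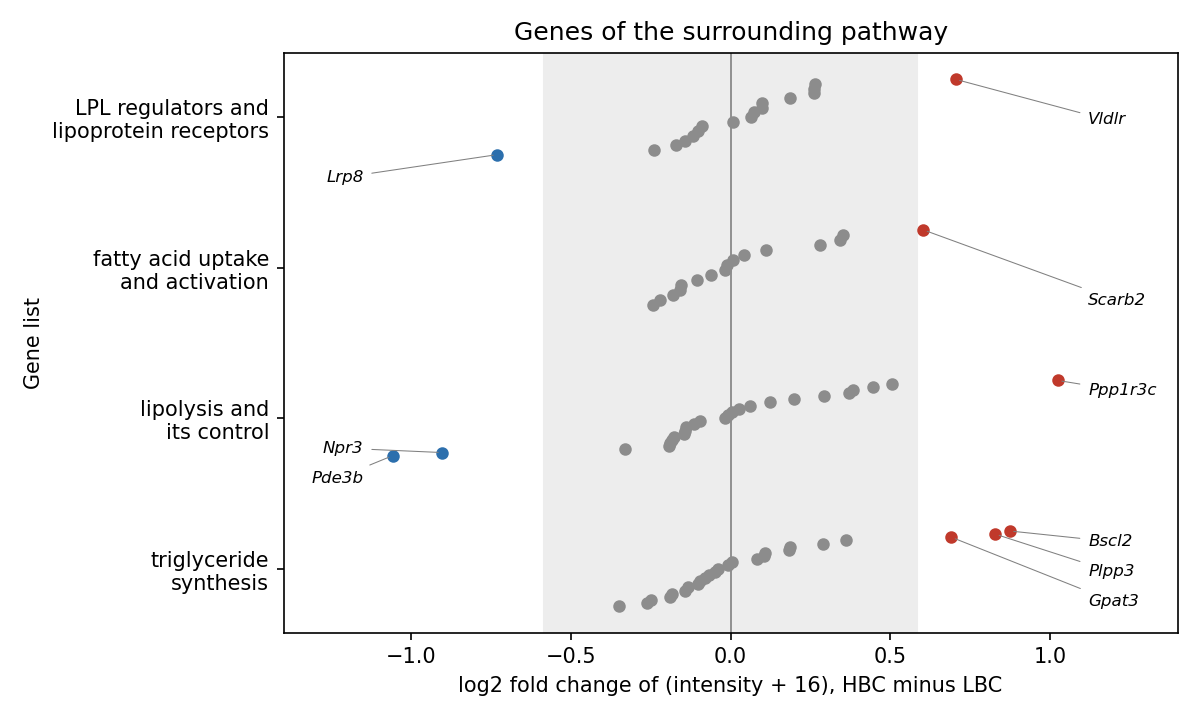
Log2 fold change of intensity + 16, HBC minus LBC, for the 83 pathway genes in 4 lists (LPL regulators and lipoprotein receptors 17, fatty acid uptake 16, lipolysis 25, triglyceride synthesis 25), spread vertically by rank within a list. Red marks the 6 genes called higher, blue the 3 called lower and grey the others; the grey band spans folds up to 1.5.

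In triglyceride synthesis, 3 of 25 genes were higher and 22 had no call, and the list median was -0.04. Bscl2, which encodes seipin, an endoplasmic reticulum protein needed for lipid droplet formation, read 873, 917 and 790.2 in HBC and 426, 453 and 508 in LBC, with every HBC array above every LBC array (log2 difference 0.87; limma, adjusted p = 7.0e-09). Plpp3, a phosphatase of lipid phosphates at the cell surface, read 3231, 3378 and 3032 in HBC and 1619, 1711 and 2106 in LBC (0.83, adjusted p = 5.3e-08 from limma). Gpat3, an acyltransferase of the first step of glycerolipid synthesis, read 149, 140.4 and 137 in HBC and 75.0, 86.5 and 84.3 in LBC (0.69, adjusted p = 2.7e-07 from limma). Its LBC mean lay within the range of dim signal, and with 50 added in place of 16 its log2 fold change of 0.54 was under the fold needed. The brightest genes of the list without a call were Plpp1 (0.19) and Plpp2 (-0.13).

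In the list of lipolysis and its control, 1 of 25 genes was higher, 2 were lower and 22 were not called, with a median of -0.02. Pde3b, the phosphodiesterase through which insulin lowers cyclic AMP and restrains lipolysis, read 62.1, 59.5 and 49.6 in HBC and 119.7, 134 and 155 in LBC. The groups were well apart, at a log2 difference of -1.06 ± 0.095 (standard error; limma, adjusted p = 3.6e-10), although HBC lay within the range of dim signal. Npr3, the clearance receptor for natriuretic peptides, read 119, 108 and 122 in HBC and 243, 253 and 199.8 in LBC (-0.90, adjusted p = 5.7e-09 from limma). Ppp1r3c, which is known as a regulatory subunit of glycogen metabolism rather than of lipolysis, read 106, 107 and 103 in HBC and 44.4, 43.1 and 43.2 in LBC, the latter in the range of dim signal (1.02, adjusted p = 3.9e-11 from limma). The brightest genes not called were Prkar1a, a regulatory subunit of protein kinase A, at 0.01, and Acot2, a mitochondrial acyl-CoA thioesterase, at 0.50.

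Of 17 regulators of lipoprotein lipase and lipoprotein receptors, 1 was higher, 1 was lower and 15 were not called, with a median of 0.06. The called pair are receptors of the same family. Vldlr, which binds triglyceride-rich lipoproteins, read 529, 582 and 519.8 in HBC and 302, 385 and 301 in LBC (log2 difference 0.70; limma, adjusted p = 1.1e-06). Lrp8, a receptor for apolipoprotein E and reelin, read 536, 549 and 519 in HBC and 792, 857 and 1067 in LBC (-0.73, adjusted p = 6.8e-07 from limma). By the methods' t-test both missed the threshold, with adjusted p of 0.057 for Vldlr and 0.058 for Lrp8. Lrp1, the endocytic receptor, and Hspg2, a heparan sulfate proteoglycan, were the brightest without a call, at 0.26 and 0.10.

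Of 16 genes of fatty acid uptake and activation, 1 was higher and 15 had no call, and the median was -0.01. Scarb2, known chiefly as a lysosomal membrane protein of the CD36 family, read 658, 739 and 678 in HBC and 396, 472 and 484 in LBC (0.60, adjusted p = 7.4e-06 from limma). It was close to the fold needed and was not called without HBC replicate 2 (0.56) or LBC replicate 1 (0.52), with 50 added in place of 16 (0.57), nor by the methods' t-test (adjusted p = 0.053). Got2 and Cav1, the brightest genes not called, had log2 fold changes of -0.16 and 0.34.

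**Figure D4:**
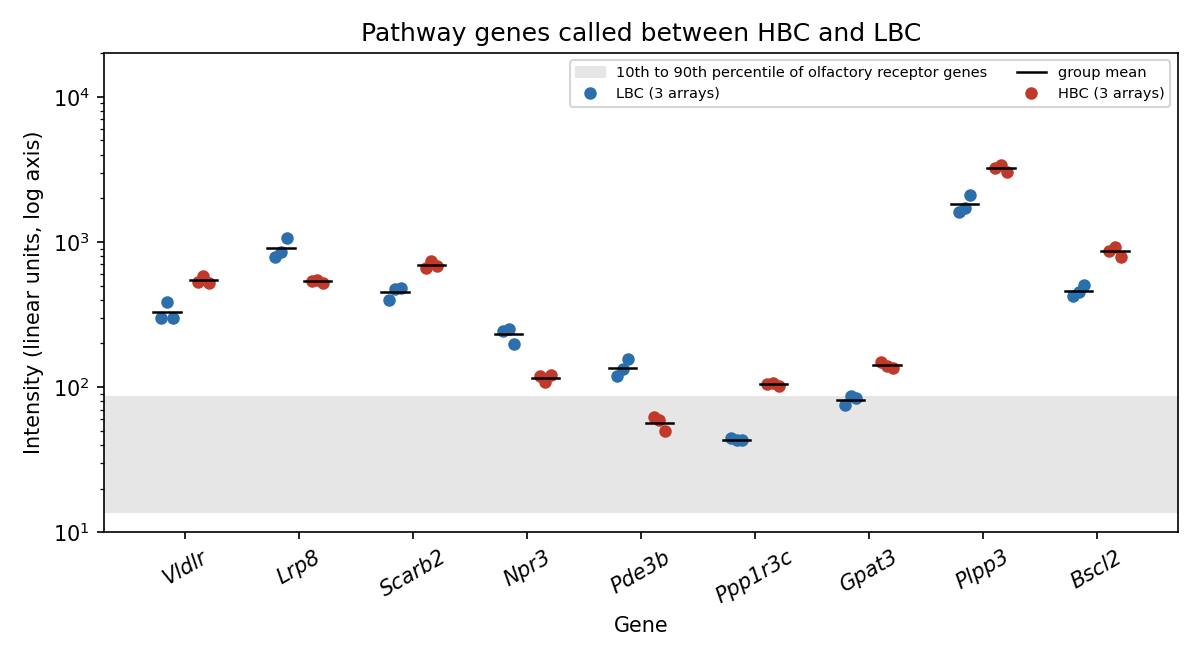
Intensity (linear units on a log axis) on each array of the 9 pathway genes called between HBC (red, 3 arrays) and LBC (blue, 3 arrays), with black lines at group means and the range of olfactory receptor genes in grey. The groups do not overlap for any of the 9, which follows largely from their choice by a call. Over all genes, groups did not overlap with HBC above for 10.1% and with HBC below for 25.1%. Pde3b in HBC and Ppp1r3c in LBC lie inside the grey band, and Gpat3 in LBC at its upper edge.

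Lpl is itself a gene of adipocytes and their precursors, so marker genes were read beside it. Of 9 mature adipocyte markers none was called, and their median log2 fold change was -0.13, beside -0.07 over all genes. Fabp4 and Retn (2 of the 9) passed the adjusted p alone with every HBC array above every LBC array. Over all genes 6.93% passed in the higher direction, and 10.1% had every HBC array above. In both groups 5 of the 9 lay in the range of dim signal, and the summed intensity was 2942 to 3114 in HBC and 2294 to 2631 in LBC. Most of that sum was Fabp4, a fatty acid binding protein, whose HBC mean was 2363 ± 78.1 (SD, n = 3) and whose LBC mean was 1774 ± 246 (SD, n = 3), a log2 difference of 0.42 (limma, adjusted p = 0.0013). Retn, the gene of the adipocyte hormone resistin, had the largest difference of the list, at 193, 184 and 183 in HBC and 131, 121 and 108 in LBC, a ratio of means of 1.55 and a log2 difference of 0.58 (limma, adjusted p = 7.9e-06), just under the fold needed on that scale. Adipoq, the gene of adiponectin and a defining marker, was dim at 43.0 in HBC and 40.7 in LBC, and Plin1 read 136 and 137; Retn, Adipoq and Plin1 were chosen after their values were seen. Of 11 preadipocyte and fibroblast markers, Col3a1 was higher (0.80), Dcn was lower (-0.78) and 9 were not called; Col1a2 was the brightest (0.24), and the sums were 25771 to 29407 in HBC and 23657 to 27371 in LBC. No macrophage marker of 12 was called (Cd68, the brightest, -0.11), with sums of 999 to 1040 in HBC and 1112 to 1200 in LBC. Among 9 smooth muscle and pericyte markers Cnn1 was lower (-0.80), with sums of 1134 to 1266 in HBC and 1460 to 1549 in LBC, and among 7 mesothelial markers Msln was lower (-1.20) and Krt19, the brightest, was not called (0.38), with sums of 1032 to 1102 and 1108 to 1127. By the adjusted p alone (limma, below 0.05), 4 preadipocyte and fibroblast markers passed higher and 2 lower, the called ones included. In the same way 1 macrophage marker, 2 smooth muscle and pericyte markers and 1 endothelial marker passed lower. Of the mesothelial markers 1 passed in each direction. Over all genes 6.93% passed higher and 11.4% lower. The part of these marker differences in the values of Lpl was not tested.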

How the data were processed

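The deposited table holds 1 linear intensity per transcript cluster and array for 35556 clusters, which the authors produced with Affymetrix Expression Console; the version, the summary method and any scaling across arrays were not given in the sources used here. Its row identifiers are those of a mouse gene array older than the version the methods name. Clusters that carry several symbols (1621) or no symbol (12146) were not used. Of 999 genes with several clusters, the one with the highest mean intensity was used. Log2(intensity + 16) of 19938 genes was compared between 3 HBC and 3 LBC arrays, grouped by title, with limma 3.58.1 (lmFit, eBayes) in R 4.3.3, with no term for the replicate number and with Benjamini-Hochberg adjustment over all genes. The 16 added makes folds of dim genes smaller. The limma step was tested on simulated data. The variance shared between genes had 24.9 prior against 4 residual degrees of freedom, so the exponents of very small p-values carry little meaning.

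Members and gene lists were chosen with earlier results of these data known. Named genes are all members; in the pathway lists those called and the 2 brightest not called; the brightest and called markers; and the 3 profiles most like each called member. Of 98 pathway genes listed, 83 were measured; Apoc2, Acsl3 and Prkaca share clusters with other genes and 12 more were not analysed here. Alternatives tried were median, quantile and cyclic loess scaling, other added values, intensity filters, Student's t-test without the methods' intensity filter, and another variance prior. Further ones were other cluster choices, a replicate block, other fold thresholds, LBC replicate 1 alone, and leaving out each array. The number of arrays limits the precision.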

Additional observations from a re-analysis of the deposited data

How the results depend on the processing

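Lpl was the only member called under every alternative except the removal of the fold threshold, which called 2 members, 25 pathway genes (9 in the comparison above) and 3655 genes in all (732 above). At a fold above 2, Lpl, 2 pathway genes and 280 genes in all were called. Of the other counts, those for pathway genes ran from 6 to 9. Student's t-test without the methods' intensity filter called 6 of 83. The filter on 100 in both groups also gave 6, but of 58 genes tested, with Pde3b, Ppp1r3c and Gpat3 removed before the test. Leaving out an array gave 710 to 784 genes in all and 8 to 9 pathway genes, with Lpl between 1.80 and 1.89. With LBC replicate 1 alone as LBC, Lpl was at 1.93 and Lrp8 lost its call, at -0.55. The replicate block left 732, 1 and 9 calls. Arrays of the same number deviated from their groups with correlations of -0.096, -0.24 and -0.50, so none of these pairs was positively correlated. Arrays of different number gave -0.47 (HBC replicate 2 with LBC replicate 1) to 0.49 (HBC replicate 3 with LBC replicate 1). What these deviations share was not tested. The signs of some genes near 0 turned. Cd36 was 0.045, 0.053 and 0.030 under quantile, cyclic loess and median scaling, and -0.10 to 0.093 when an array was left out. Dgat1 was 0.050 and 0.036 under cyclic loess and median scaling, 0.13 with LBC replicate 1 alone and -0.076 to 0.088 with an array left out. Lipe was 0.023 under cyclic loess, and Mgll ran from -0.089 to 0.068 with an array left out. Prkar1a was -0.020 under quantile scaling and -0.044 to 0.067 with an array left out. Cldn5 was -0.12 with LBC replicate 1 alone and -0.046 to 0.094 with an array left out. In all, 18 values of named genes lost their call and 6 gained one, and no called gene turned; beyond the fold and filter settings, the cause was not tested. Signal over background limits Cd36 and Mgll in both groups, Pde3b in HBC, and Ppp1r3c and Gpat3 in LBC.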
